A study of Mus musculus with 4 samples.

Results

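Epiblast-like aggregates (ELA) formed in the presence of 50 nM 5-azacytidine (AZA) were compared with untreated ELA by expression array. The comparison holds 2 of the 4 arrays analysed, 1 per group, and is defined by treatment and day. A probe was kept where Feature Extraction marked it as well above background on either array or both. This left 38671 of 55122 probes and 26959 of 36039 gene names. AZA minus ELA, the difference of normalised log2 intensity, was then described across genes. For genes with at least 2 usable probes, the agreement between the probes served as the check in place of replicates.

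Both groups came from E14Tg2A, a single mouse embryonic stem (ES) cell line of strain 129/Ola. Cells of both were aggregated for 2 days in a chemically defined medium without serum or leukaemia inhibitory factor (LIF), and AZA was added to the treated group while the aggregates formed. RNA of 3 experiments was pooled for each array. With 1 array per group there was no spread between replicates and no p-value. Levels on the other arrays are given beside the main results. These were untreated ES cells at day 0 in serum and LIF, and ELA of day 2 treated with 100 µM 5-carboxy-8-hydroxyquinoline (CHQ), an inhibitor of histone lysine demethylases.

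Methylation of cytosine at CpG dinucleotides is written by the de novo enzymes Dnmt3a and Dnmt3b, helped in germ cells and early embryos by the catalytically inactive Dnmt3l, and is copied at replication by Dnmt1 with Uhrf1. 5-azacytidine is a cytidine analogue that is phosphorylated in the cell and built into RNA and, after reduction, into DNA, where it traps DNA methyltransferases and lowers methylation as cells divide. In the embryo, naive epiblast cells have little CpG methylation and gain it as they become primed for differentiation after implantation. Promoters of many germline genes, imprinted genes and retroviral repeats are known to be held silent by this mark. Methylation itself was not measured here.

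The ELA and AZA arrays lay on different slides that were scanned in separate runs, with ES beside ELA and CHQ beside AZA, so that treatment and slide cannot be told apart. On the first slide 60.6% (ES) and 55.1% (ELA) of gene spots lay well above background, and on the second 69.1% (AZA) and 69.2% (CHQ). Local background medians were 59 and 77 intensity units on the first and 14 and 13 on the second. No spot was saturated. Spots that repeat a probe within an array differed by an SD of 0.13 to 0.16 (log2), a spread of the array alone and not of the cells. In bulk RNA, fewer cells of a type and less RNA per cell cannot be told apart.

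The labelled states were read first. Fgf5, a growth factor that marks the primed epiblast, had a level of 11.61 in ES and 14.47 in ELA, and the naive factor Klf4 had 12.54 and 9.50. The untreated aggregates thus carried the marker levels of their label, with AZA giving 11.94 for Fgf5 and 13.58 for Klf4. All levels here and below are normalised log2 intensities, which compare arrays for one probe and not one gene with another.

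A gene was called when AZA minus ELA was at least 1 or at most -1 (a 2-fold difference) and the mean of the ELA and AZA levels was at least 7.5. Of 19159 genes with such a mean, each given by its brightest probe, 2731 were higher with AZA (14.3%) and 2175 were lower (11.4%). These are the background shares against which the count of each gene list below is set, and a share near them is no result about a list. The median was 1.76 for genes called higher and -1.38 for genes called lower, against -0.07 over all tested genes (quartiles -0.55 and 0.51). At 2 log2 units or more, 1111 genes were higher and 397 lower, at 3 or more there were 418 and 77, and at 4 or more 145 and 15. A fall of a dim gene ends at the floor of the array, and in simulated data falls were measured smaller and recovered less often than rises of equal size, so the sizes of rises and falls are not alike in reach. Of the genes called higher, 363 were well above background on the AZA array alone, whereas 21 of the genes called lower were so on the ELA array alone. Calls were more frequent at low levels. Between a mean of 7.5 and 9, 18.7% of genes were higher and 12.9% lower, and above 13 the shares were 7.22% and 4.74%. The balance of directions rests on scaling, since setting the arrays level by their E1A spike-in probes in place of quantiles moved the median of all genes to -0.38 and gave 2087 higher and 3667 lower. Scaling to the 75th percentile moved the median to -0.20 and gave 2357 higher and 2483 lower.

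**Figure D1:**
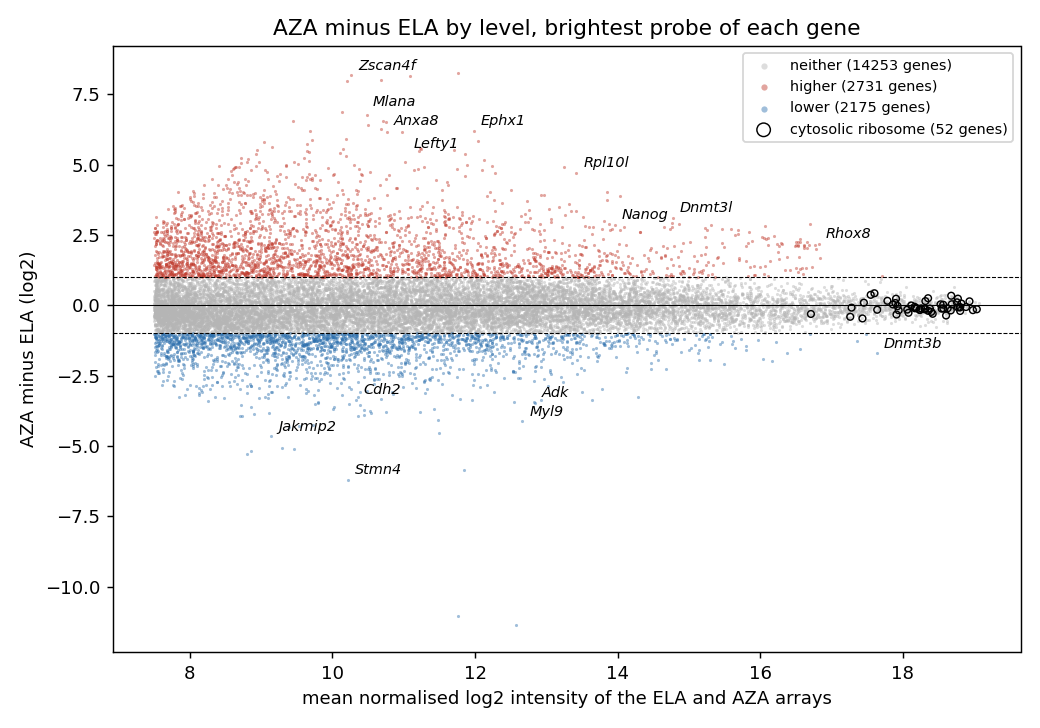
AZA minus ELA (log2, y axis) against the mean normalised log2 intensity of the ELA and AZA arrays (x axis), 1 point per tested gene, with genes called higher in red (2731), lower in blue (2175) and neither in grey; dashed lines mark 1 and -1. The circled cytosolic ribosome genes lie between -0.47 and 0.43, while named genes such as Mlana (6.75) and Stmn4 (-6.20) lie far from 0.

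Different probes of a gene lie at different places in its transcripts and measure it separately on the same arrays. For 4466 genes at least 2 probes were usable. Every probe of 347 of the 4466 genes was higher by at least 1 (7.77%), and every probe of 250 was lower (5.6%). Of 601 genes with at least 2 usable probes called higher by the brightest, 347 (57.7%) passed at all probes and 511 (85.0%) had 1 sign throughout. Another probe was past the fold in the opposite direction for 8. Of 442 called lower, the numbers were 250 (56.6%), 402 (91.0%) and 15. Across the 4466 genes the brightest and next brightest probe gave differences that correlated at r = 0.743 (Spearman's rho 0.654), as a description across genes that share both arrays. They had the same sign in 74.3% of genes, and in 93.3% of the 328 genes whose brightest probe differed by 2 or more, where the next probe gave a median of 0.828 of the brighter one's difference. The probes of a gene share the slide, so their agreement says nothing of a slide effect.

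**Figure D2:**
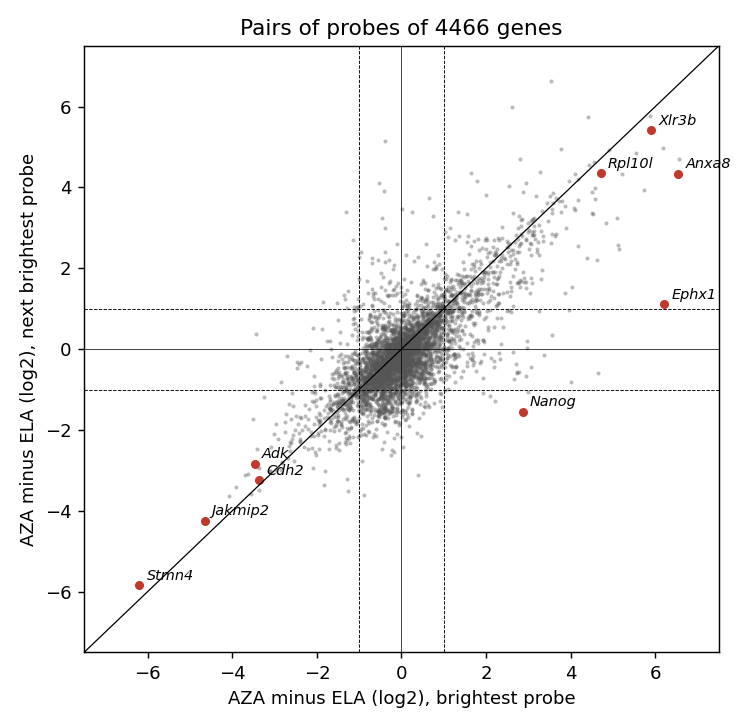
AZA minus ELA (log2) at the next brightest probe (y axis) against the brightest probe (x axis) for 4466 genes, with the diagonal solid and 1 and -1 dashed. Stmn4, Jakmip2, Adk, Cdh2 and Rpl10l lie near the diagonal, Ephx1 lies far below it (1.10 against 6.21), and the probes of Nanog have opposite signs (-1.55 against 2.86).

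The marker genes given for this comparison were read next. Mlana, a melanosome protein, had levels of 9.12 (ES), 7.11 (ELA), 13.86 (AZA) and 13.16 (CHQ), and AZA minus ELA was 6.75, or 108-fold, at its 1 usable probe (chromosome 19, 29782737 to 29782796, mm9). Anxa8, a calcium-dependent phospholipid-binding annexin, had 10.56, 7.43, 13.98 and 14.19 in the same order, a difference of 6.55 that was 4.34 at its second probe. Both treated arrays lay above both untreated ones for these genes. Lefty1, a secreted inhibitor of Nodal, had 11.51, 7.90, 14.07 and 11.59, a difference of 6.17 with 1 probe. Here AZA lay 2.56 above ES and CHQ lay beside it. Stmn4, a microtubule-destabilising stathmin of neurons, had 11.47, 13.31, 7.12 and 8.32, a difference of -6.20 at the brightest probe (chromosome 14, 66980442 to 66980501, mm9) and -5.85 at the second.

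Among genes well above background on both arrays whose every probe passed, Anxa8 was followed by Ephx1, the microsomal epoxide hydrolase. Ephx1 had levels of 11.67 (ES), 8.87 (ELA), 15.09 (AZA) and 15.08 (CHQ), a difference of 6.21 at one probe and 1.10 at the other, so its size was not settled. Xlr3b, of an X-linked lymphocyte-regulated family expressed in germ cells, had 8.04, 7.24, 13.15 and 12.25 and differed by 5.91 and 5.41 at its probes. Jam2, a junctional adhesion molecule, had 12.97, 8.47, 14.01 and 12.00, with differences of 2.97 to 5.54 at 3 probes. The ELA array was the lowest of the 4 for each of these genes. Rpl10l, a retrogene copy of a ribosomal protein that is expressed in the testis, had 12.77, 11.06, 15.77 and 15.28 and differed by 4.71 and 4.34. The remaining genes by this rule were Dglucy (5.13, a D-glutamate cyclase), the homeobox gene Rhox2h (4.63), Ms4a10 (4.58), the lysosomal Laptm5 (4.57) and the T cell kinase Zap70 (4.50). Their other probes differed by 2.21 to 3.98, all upward.

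The largest falls of genes with an ordinary symbol that passed at every probe began with Stmn4 and Jakmip2, a coiled-coil protein of neurons. Jakmip2 had levels of 9.60 (ES), 11.46 (ELA), 6.81 (AZA) and 9.44 (CHQ), with differences of -4.65 and -4.25. Cxcl12, a chemokine that guides migrating cells, had 10.60, 13.52, 9.45 and 10.30, with differences of -4.07 and -3.63. AZA gave the lowest of the 4 levels for both. Adk, adenosine kinase, had 14.39, 14.57, 11.10 and 14.11, with differences of -3.46 and -2.84. Cdh2, the N-cadherin of neural and mesodermal cells, had 11.28, 12.01, 8.65 and 12.08, with differences of -3.36 and -3.25. For Adk and Cdh2 the AZA array was the lowest by more than 2 log2 units. Cdh4 (-3.62, R-cadherin), Ap1s3 (-3.90, an adaptor of vesicle coats), Plac8 (-3.50), Lin28b (-3.42, an RNA-binding block of let-7 maturation) and Ptpn13 (-3.37, a tyrosine phosphatase) completed the list, and their second probes differed by -1.72 to -3.40.

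Where the ELA array was not well above background, the rise has only a lower bound. AZA was at least 58.7-fold higher than ELA for Mst1, a macrophage-stimulating hepatocyte factor, whose probes differed by 5.88 and 5.78. For the phosphatase Dusp13 AZA was at least 27.6-fold higher, though its other probe differed by 2.57. These genes had at least 2 probes above background on the AZA array alone. By the same rule the bound was 37.8-fold for Ly6c1, a surface protein of leukocytes and endothelium, though its other probe differed by 0.89. The bound was 24.3-fold for Xlr5c, though its other probe differed by 3.25. It was 21.3-fold for Hormad1, a protein of the meiotic chromosome axis whose other probe differed by 2.24. In the other direction the rule named a single pair of genes. ELA was at least 6.79-fold higher than AZA for the transcription factor Dach1 and at least 4.79-fold for the channel Trpc4, and their other probes differed by -1.29 and -1.61. A pair of single-probe values was chosen after they were seen because they lay farthest out. The probe of 4933407C09Rik had 18.25 on the ELA array but 7.19 in ES, 6.90 with AZA and 6.29 with CHQ, and A_55_P1994184, a probe without a gene name, had 17.27 in ELA and 6.28, 6.24 and 6.09 elsewhere. Each of these falls rests on 1 probe of the ELA array.

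The naive pluripotency network, which maintains ES cells in the ground state and is shut down at priming, was higher as a group. Of 16 tested members, 14 were higher with AZA and 1 was lower, with a median difference of 3.39, against 14.3% of all genes called higher. Klf4, a Krüppel-like activator, had levels of 12.54 (ES), 9.50 (ELA), 13.58 (AZA) and 13 (CHQ). Esrrb, an orphan nuclear receptor, had 14.93, 12.08, 15.98 and 13.97. Zfp42, also called Rex1, had 15.80, 11.99, 15.72 and 15.04. For each, ELA was the lowest array and AZA lay within 1.05 of ES. Tbx3, a T-box repressor, had 10.72, 8.46, 13.56 and 12.03, a difference of 5.10. Tcl1, an activator of Akt, had 13.07, 9.40, 14.37 and 10.54, a difference of 4.97, and Nr0b1, also called Dax1, had 13.13, 9.23, 13.69 and 12.57. Nanog had 15.03, 12.53, 15.39 and 12.54, so that AZA minus ELA was 2.86 and CHQ minus ELA 0.01. A second Nanog probe differed by -1.55, and the direction of Nanog was not settled. The members outside the majority were Gbx2 (-1.38) and Dppa3, a protector of maternal methylation, which had 12.37, 10.43, 9.97 and 7. Fgf4 was higher by 1.72. Pou5f1, which encodes Oct4, had 14.95, 14.46, 14.05 and 13.56 and Sox2 had 13.43, 12.77, 13.76 and 13.41, and neither passed.

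**Figure D3:**
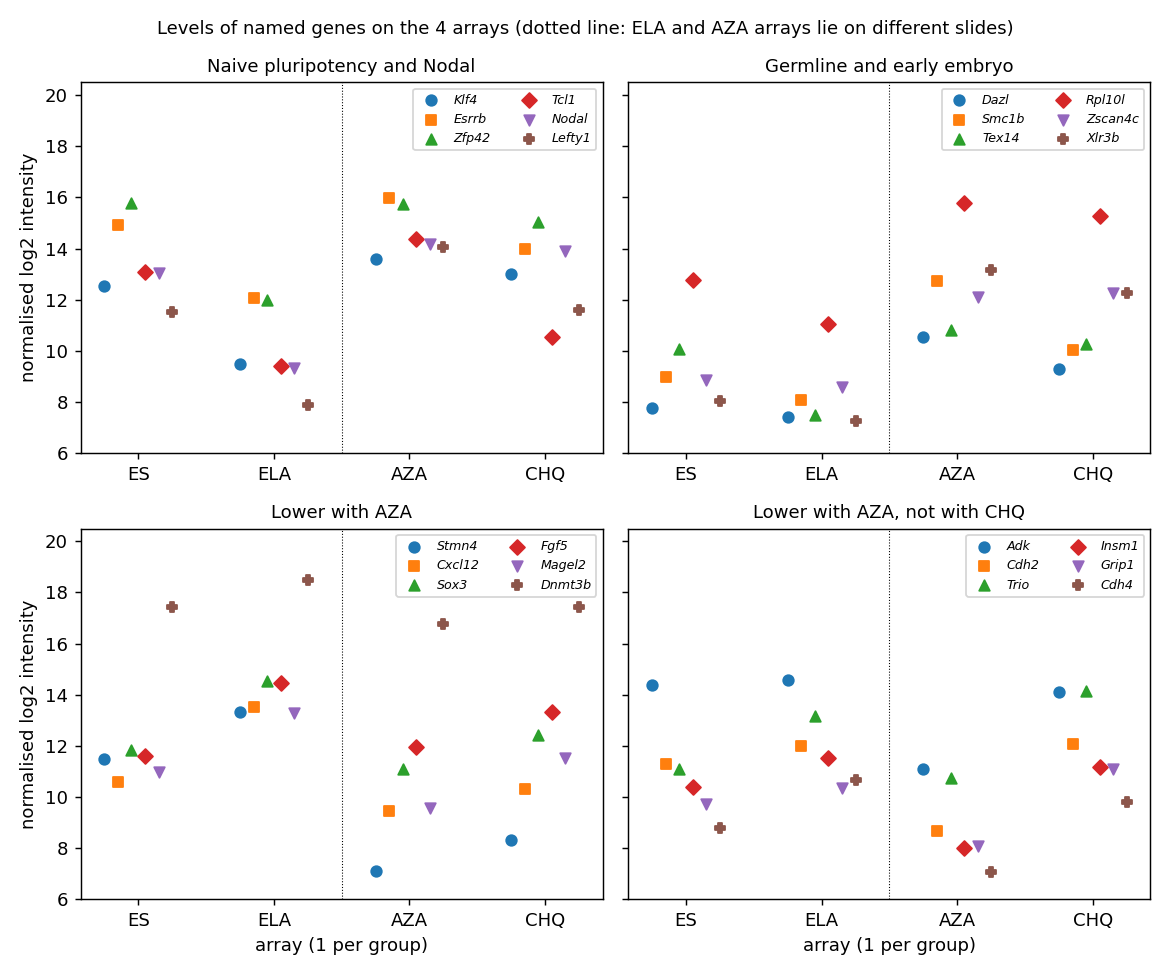
Normalised log2 intensity (y axis) of 24 genes on the 4 arrays, 1 array per group and 1 symbol per gene, with the dotted line between the slides. In the first panels AZA exceeds ELA for each gene; Adk, Cdh2, Trio, Insm1, Grip1 and Cdh4 are lower with AZA than on each of the other arrays.

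Genes of the Nodal pathway were higher in 7 of 18 tested (38.9%, background 14.3%) and lower in 2 (11.1%, near the background of 11.4%). Nodal, the TGF-beta ligand of the epiblast, had levels of 13.04 (ES), 9.32 (ELA), 14.17 (AZA) and 13.91 (CHQ), a difference of 4.85. Its inhibitor Lefty2 had 11.50, 9.11, 14.96 and 12.08, a difference of 5.85, beside the 6.17 of Lefty1. The ligand-processing protease Pcsk6 (3.31), the inhibitory Smad7 (3.46) and Gdf3 (2.35 and 0.76 at its probes) were also higher. The receptors and signal carriers were not called, with Acvr1b at 0.37, Acvr2b at -0.94, Smad2 at -0.46 and Smad4 at -0.01, and the co-factors Foxh1 (-1.17) and Cfc1 (-1.18) were lower. In the LIF pathway 6 of 12 were higher (50%, background 14.3%) and 1, Gbx2, was lower (8.33%, under the background of 11.4%). Its largest rises, Tfcp2l1 (4.18) and Klf4 (4.09), are shared with the naive list, as is Gbx2, so the lists are not separate results. The receptor Lifr (2.89, and 1.26 or more at each probe), the feedback inhibitor Socs3 (2.12) and Stat3 (1.53) were also higher. Of the Id genes, which encode inhibitors of neural helix-loop-helix factors downstream of BMP, Id4 was at least 15.1-fold higher while Id3 (-2.34) and Id1 (-1.15) were lower. Id1 had 14.59 (ES), 10.61 (ELA), 9.46 (AZA) and 9.20 (CHQ).

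Markers of the formative and primed epiblast gave 8 lower of 15 tested (53.3%, background 11.4%) and 3 higher (20%, background 14.3%), with a median of -1.01. Fgf5 had levels of 11.61 (ES), 14.47 (ELA), 11.94 (AZA) and 13.33 (CHQ), a difference of -2.54. The SoxB1 factor Sox3 had 11.82, 14.55, 11.11 and 12.42, a difference of -3.44, and the POU factor Pou3f1 had 14.36, 15.19, 13.64 and 15.48, a difference of -1.55. Nodal, Lefty2 and Wnt8a were the members that were higher, and the first pair is shared with the Nodal list. Otx2 differed by 0.33, and Eomes by -0.70 and 0.02 at its probes.

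Among the genes of DNA methylation, 7 of 24 were higher (29.2%) and 3 lower (12.5%), against 14.3% and 11.4% of all tested genes, so that the share lower lay near that of all genes. Dnmt3b, the main de novo enzyme of the epiblast, had levels of 17.44 (ES), 18.49 (ELA), 16.78 (AZA) and 17.44 (CHQ), and its 3 probes differed by -1.71 to -2.47. Dnmt3a had 10.34, 11.85, 10.85 and 10.65, a difference of -1.01 that became -0.98 under scaling to the 75th percentile. Dnmt3l had 15.96, 13.22, 16.33 and 15.38, a difference of 3.11. Both de novo enzymes were thus lower and their inactive helper was higher. Dnmt1 had 11.86, 11.93, 11.82 and 11.81 and was nearly level, and Uhrf1 differed by -0.39 and -1.68 at its probes. Tet2, which oxidises methylcytosine, had 12.07, 9.05, 11.68 and 11.55 and differed by 2.63 and 2.36 at its probes, whereas Tet1 differed by 0.04 to 1.04 at 3 probes. Zfp57, a zinc finger protein that keeps imprints methylated, differed by 3.96 and 0.97, and Tdg, the glycosylase that removes oxidised methylcytosine, by -0.75 to -1.88 at 3 probes. Zbtb38 and Gadd45b were higher by 1.45 and 1.39, and Mbd2 differed by 1.40 and 0.24 at its probes.

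Genes that carry AZA into cells and activate it were read separately, since the drug needs them. Slc29a1, an equilibrative nucleoside transporter, had levels of 13.33 (ES), 11.06 (ELA), 14.24 (AZA) and 12.80 (CHQ), a difference of 3.18, and Slc29a2, its paralogue, had 11.22, 11.16, 10.06 and 9.41, a difference of -1.10. The uridine-cytidine kinase Uck1 differed by -1.02 and Uck2, which also phosphorylates the drug, by 0.67. The deaminase Cda differed by -0.59 and the ribonucleotide reductase subunits Rrm1 and Rrm2 by -0.23 and 0.64. In all 2 of 18 were higher (11.1%) and 3 lower (16.7%), shares near the 14.3% and 11.4% of all tested genes.

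Germline genes that are known to be silenced by promoter methylation in somatic cells were higher in 24 of 31 tested (77.4%, background 14.3%), with 3 lower (9.68%, under the background of 11.4%) and a median of 1.95 (1.79 for CHQ minus ELA, which shares the ELA array). Of the 31 tested, 3 have only a bound, among them Hormad1, which was not well above background in ELA. A gene at the ELA floor reaches the mean of 7.5 only if it is high with AZA, so its call carries no weight. The median was 1.45 at the lowest over the alternatives. Dazl, an RNA-binding protein of germ cells, had levels of 7.75 (ES), 7.40 (ELA), 10.53 (AZA) and 9.30 (CHQ). Smc1b, a meiotic cohesin subunit, had 8.99, 8.09, 12.74 and 10.03, a difference of 4.65. Tex14, of the bridges between germ cells, had 10.07, 7.47, 10.82 and 10.25, a difference of 3.35. For Dazl and Smc1b the AZA array was the highest of the 4 by more than 1. The testis helicase D1Pas1 (3.49), the chaperone Fkbp6 (3.22) and Stra8, the gatekeeper of meiosis (2.56), were higher too. Sycp1, of the synaptonemal complex, was higher by 1.35, and its partner Sycp3 was lower at both probes (-1.08 and -1.16), having 12.71, 13.75, 12.67 and 12.36. Ddx4 (-1.21) and Tdrkh (-1.25), of the piRNA pathway, were the other members that were lower. The other 11 of the 42 names had a mean level under 7.5 and could not be tested.

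The 250 bases before the start of 7 genes were set out to show how promoters of genes that moved differ in CpG content, with every CG in capitals (a motif that reads the same on both strands). They are from RefSeq on GRCm38.p6, each on its gene's own strand, 5′ to 3′. The germline genes Dazl (chr17:50293621-50293870, minus strand), Smc1b (chr15:85131958-85132207, minus) and Tex14 (chr11:87404815-87405064, plus) hold 20, 25 and 17. Anxa8 (chr14:34085729-34085978, plus), Ms4a10 (chr19:10974701-10974950, minus) and Zscan4f (chr7:11397665-11397914, plus), which also rose, hold 4, 0 and 3. Dnmt3b (chr2:153649199-153649448, plus), which fell, holds 21.
Dazl: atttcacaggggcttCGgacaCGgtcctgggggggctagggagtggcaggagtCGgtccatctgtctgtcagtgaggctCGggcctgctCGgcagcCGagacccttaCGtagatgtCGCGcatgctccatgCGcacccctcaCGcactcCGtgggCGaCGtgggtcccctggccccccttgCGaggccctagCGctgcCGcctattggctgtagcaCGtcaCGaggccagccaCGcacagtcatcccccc
Smc1b: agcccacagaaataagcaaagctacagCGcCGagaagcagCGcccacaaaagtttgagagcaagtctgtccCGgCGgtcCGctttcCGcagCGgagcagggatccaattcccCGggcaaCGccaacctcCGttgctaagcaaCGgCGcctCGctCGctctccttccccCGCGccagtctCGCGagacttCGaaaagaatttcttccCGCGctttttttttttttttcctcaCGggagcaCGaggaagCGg
Tex14: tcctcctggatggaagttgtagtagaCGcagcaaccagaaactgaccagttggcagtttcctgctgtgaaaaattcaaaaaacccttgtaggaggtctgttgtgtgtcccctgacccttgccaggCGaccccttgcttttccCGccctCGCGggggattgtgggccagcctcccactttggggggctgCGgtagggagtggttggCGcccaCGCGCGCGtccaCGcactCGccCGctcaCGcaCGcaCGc
Anxa8: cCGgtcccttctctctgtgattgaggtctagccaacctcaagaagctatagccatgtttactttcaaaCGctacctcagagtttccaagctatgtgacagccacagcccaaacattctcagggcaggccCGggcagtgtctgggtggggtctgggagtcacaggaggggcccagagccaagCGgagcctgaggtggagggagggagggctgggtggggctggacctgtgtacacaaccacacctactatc
Ms4a10: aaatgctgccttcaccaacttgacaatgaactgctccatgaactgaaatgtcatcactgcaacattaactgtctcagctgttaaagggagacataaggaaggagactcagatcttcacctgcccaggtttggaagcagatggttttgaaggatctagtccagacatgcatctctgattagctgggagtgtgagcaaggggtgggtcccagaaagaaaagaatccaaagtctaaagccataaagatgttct
Zscan4f: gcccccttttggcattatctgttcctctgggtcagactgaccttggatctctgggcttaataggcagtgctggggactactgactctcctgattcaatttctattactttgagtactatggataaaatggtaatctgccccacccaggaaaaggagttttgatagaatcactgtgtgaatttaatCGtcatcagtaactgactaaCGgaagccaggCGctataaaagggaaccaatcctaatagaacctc
Dnmt3b: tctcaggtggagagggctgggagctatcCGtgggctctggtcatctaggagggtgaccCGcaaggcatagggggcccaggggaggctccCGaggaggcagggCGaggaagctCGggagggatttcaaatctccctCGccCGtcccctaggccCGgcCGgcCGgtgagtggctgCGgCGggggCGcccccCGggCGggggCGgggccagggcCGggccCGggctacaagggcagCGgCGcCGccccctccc

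All tested protein-coding genes were then ordered by this count. Of 12909 such genes, 10346 (80.1%) had a promoter window, 77.6% of those called higher, 77.0% of those called lower and 81.1% of the others. Genes with CpG-poor promoters were called higher more often. With 0 to 2 CG, 181 of 548 genes were higher (33.0%), and the share was 25.8% with over 2 to 5, 17.5% with over 5 to 10, 11.6% with over 10 to 20 and 8.80% above 20. The share called lower ran between 9.12% and 12.5% in the same classes. CpG-poor genes were also dimmer, with a median level of 8.86 in the lowest class and 11.6 in the highest. Among genes with a mean level of 11 or more, the shares higher were 22.4%, 19.7%, 12.7%, 9.21% and 7.32%, and the shares lower also declined, with 10.4%, 9.49%, 7.84%, 7.10% and 5.78%. With CHQ, measured against the same ELA array, the shares at least 1 higher were 28.3%, 23.6%, 17.3%, 13% and 11.7%. On the second slide alone, AZA minus CHQ was at least 1 for 13.3% of genes in the lowest class and 2.80% in the highest, and at most -1 for 4.93% and 6.45%. Among genes with a mean level of 11 or more, it was at least 1 for 6.4% and 2.09%, and at most -1 for 4% and 3.30%. None of the 28 members of the germline list with a window had under 5 CG, against 11.4% of the 10346 genes. The list's median of 15.5 lay beside the 15 of all genes, and its members called higher had a median of 14. A count of CG describes sequence and not the methylation state of these cells.

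**Figure D4:**
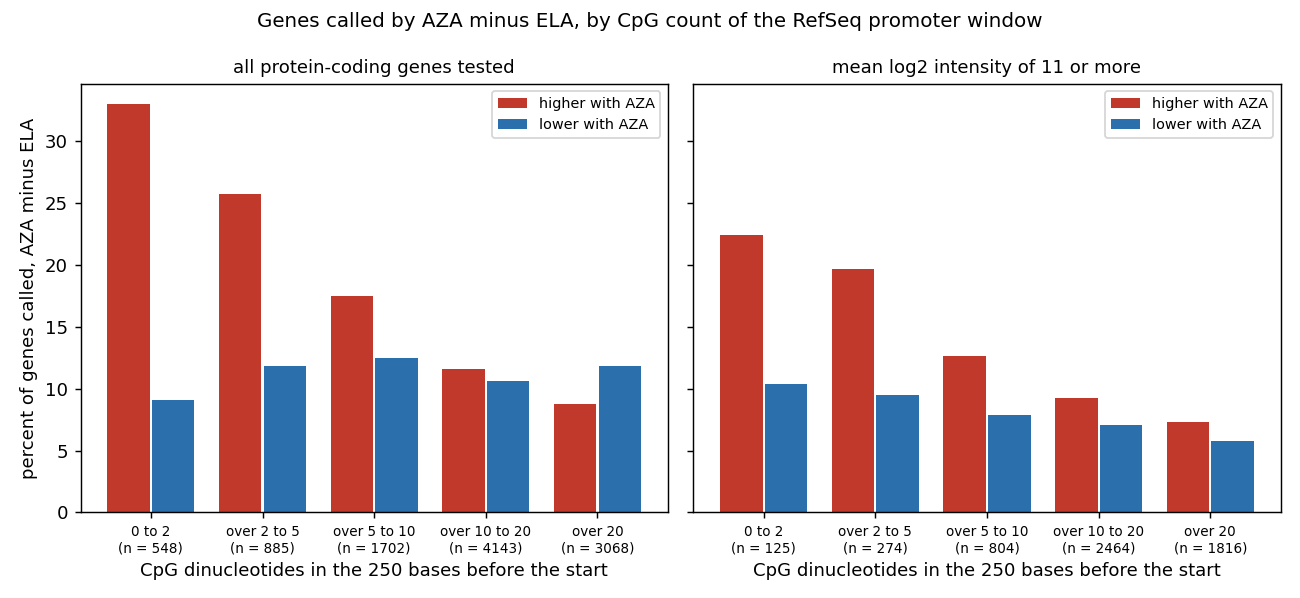
Percent of tested protein-coding genes called higher (red) or lower (blue) with AZA (y axis, from 0) by the number of CpG dinucleotides in the 250 bases before the start (x axis), for all such genes and for those with a mean log2 intensity of 11 or more. The red bars fall from 33.0% to 8.80% in the first panel and from 22.4% to 7.32% in the second, where the blue bars fall from 10.4% to 5.78%.

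Transcripts of the 2-cell embryo, which appear in rare ES cells, gave some of the widest rises. Of 14 tested members, 10 were higher (71.4%, background 14.3%) and 0 lower, with a median of 3.77 (4.58 for CHQ minus ELA), or 3.56 with the 7 members not well above background in ELA set at their bounds. Of the 7 members well above background on both arrays 3 were higher, and their median was 0.47. Zscan4c, of a zinc finger family that acts at telomeres, had levels of 8.86 (ES), 8.56 (ELA), 12.10 (AZA) and 12.25 (CHQ), and its 3 probes differed by 3.53 to 6.63. Zscan4f was at least 193.9-fold and Zscan4e at least 175.4-fold higher than ELA, where neither was above background. Gm4340 had 10.92, 7.49, 14.01 and 14.63, a difference of 6.52. Both treated arrays lay above both others for these genes. Dux, the factor that opens this programme, had 7.14, 6.78 (not well above background), 7.17 and 6.88, too low to be tested, and Zfp352 differed by 0.43. Members of these families are nearly identical in sequence, so their probes may read one another's transcripts and are not separate observations.

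Members of multigene families of the germline and placenta on the X chromosome and on chromosome 4 were higher as well, though not all of them. The Xlr3b neighbourhood held a run of 8 tested genes in a row that were higher (chromosome X, 70319816 to 70553119, mm9), among them Xlr4a (at least 19.5-fold) and Xlr5c. Of the Rhox homeobox cluster 6 of 10 were higher (60%, background 14.3%), 4 of 8 among members above background on both arrays, with Rhox2c at least 37.3-fold, Rhox13 by 2.85 and Rhox5, also called Pem, by 1.5. Rhox8 was counted as higher by its brightest probe (2.19), but its other probe differed by -0.43, and its direction was not settled. Rhox6 and Rhox9, which are placental, differed by 0.04 and 0.50. Of the Prame family 4 of 6 tested were higher (66.7%, background 14.3%), and 3 of the 6 have only a bound. Of the 3 members above background on both arrays 1 was higher. Pramel14 was at least 22.6-fold higher, with levels of 8.43 (ES), 6.19 (ELA), 11.24 (AZA) and 7.36 (CHQ), and Pramel13 was higher by 1.74. Kallikreins on chromosome 7 gave a run of 6 higher genes (51371648 to 51484325), among them Klk1b5 (5.43) and Klk1b3 (4.89). A run of 5 Krüppel-type zinc finger genes on chromosome 4 was higher (146959156 to 147200066), and a run of 8 on chromosome 13 that holds histone genes was lower (23837328 to 24198238). These runs were picked out after their values were seen and their genes are related in sequence.

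Imprinted genes, whose parental alleles are marked by methylation, held calls both ways, as all tested genes did. Of 36 members 9 were higher (25%) and 8 lower (22.2%), against 14.3% and 11.4% of all tested genes, with a median of -0.13. The paternally expressed Magel2 had levels of 10.96 (ES), 13.28 (ELA), 9.58 (AZA) and 11.52 (CHQ), a difference of -3.70. Its neighbours in the Prader-Willi region, Ndn (-2.07) and Snrpn (-1.97, and -1.77 or lower at each of 3 probes), were also lower, and Peg12 of the same region differed by -1.22. H19, a maternally expressed RNA, had 8.07, 8.01, 10.19 and 9.75, and its 3 probes differed by 0.54 to 2.18. Igf2 beside it had 7.52, 7.46, 6.94 and 6.73 and was too low to be tested. The membrane protein Cd81 (2.11), Slc22a18 (2.22) and Phlda2 (1.21), of the Kcnq1 domain, were higher, while Cdkn1c of that domain differed by -0.21. Plagl1 ranged from -0.39 to 2.69 over 4 probes, and its direction was not settled.

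Early neural genes were lower in 11 of 16 tested (68.8%, background 11.4%) and higher in 3 (18.8%, background 14.3%), with a median of -1.77. The largest falls, Sox3 (-3.44) and Cdh2 (-3.36), are shared with the formative and primed list, and Cdh2 with the cadherin list as well. Sox11, a factor of neural progenitors, had levels of 10.78 (ES), 12.45 (ELA), 9.53 (AZA) and 9.54 (CHQ), with differences of -2.92 and -2.22. Fabp7, a lipid carrier of radial glia, had 6.76, 9.70, 6.63 and 6.91, a difference of -3.08. Both genes were highest on the ELA array. Hes5 (-1.86), a Notch target, Zic2 (-2.40) and the intermediate filament Nes (-1.67) were lower, and Dll1 (1.07) and, at 1 of its probes, Sox21 (2.74 and -0.56) were higher. Sox1 was at -0.35. Genes of the neuronal cytoskeleton gave 14 lower of 21 (66.7%, background 11.4%), with a median of -1.26. Gap43, of growth cones, had 12.81, 12.34, 8.39 and 9.66, a difference of -3.95. The collapsin mediator Dpysl2 (-3.78), Stmn3 (-3.32) and the neuronal tubulin Tubb3 (-2.65) were lower beside Stmn4, and Mapt, which encodes tau, was higher by 1.59. Stmn1, the stathmin of dividing cells, differed by 0.40.

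Targets of p53, which responds to DNA damage, were higher in 11 of 23 tested (47.8%, background 14.3%) and lower in 0. Their median was 0.99 (1.43 for CHQ minus ELA), and 0.66 at the lowest over the alternatives. Of the 4 members with at least 2 usable probes, 0 were higher at every probe. The ubiquitin ligase Mdm2, a direct target that restrains p53, had levels of 15.26 (ES), 14.46 (ELA), 16.53 (AZA) and 17.19 (CHQ). Plk2, a stress kinase, had 10.71, 9.52, 12.62 and 12.72, and the death receptor Fas was at least 7.85-fold higher. Both treated arrays were the highest for these genes. Cdkn1a, the p21 inhibitor of the cell cycle, had 11.40, 11.42, 13.24 and 12.92, with differences of 0.80 to 1.82 at 3 probes. The apoptosis genes Bax (0.06), Bbc3 (0.93) and Pmaip1 (-0.49) were not called. In the cell cycle list 5 of 27 were higher (18.5%), a share near the 14.3% of all tested genes. Of its members 1, the cyclin Ccnd2 (-1.33), was lower (3.70%, under the background of 11.4%). The inhibitors Cdkn2b (2.79 and 1.62), Cdkn2a (2.26 and 1.60) and the pocket proteins Rb1 (2.23) and Rbl2 (2.62) were higher. Mki67 (-0.22), Top2a (-0.11) and Cdk1 (-0.02), which mark dividing cells, were near 0 by their brightest probes. The next probe of Cdk1 differed by -0.86. Of 24 genes of DNA damage repair and replication 3 were higher (12.5%, no more than among all genes) and 0 lower, and the 3 fell under the fold, to between 0.76 and 0.92, under E1A scaling.

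Genes of the interferon response, which viral RNA induces, were higher in 12 of 25 tested (48%, background 14.3%) and lower in 0, with a median of 0.96 (0.44 for CHQ minus ELA). Oas2, a sensor of double-stranded RNA, had levels of 10.12 (ES), 8.08 (ELA), 11.48 (AZA) and 10.75 (CHQ), a difference of 3.39. Ifi35 had 10.59, 7.71, 11.06 and 11.98, a difference of 3.34, and Oas1a had 11.86, 10.23, 12.53 and 11.30, with differences of 2.30 and 1.81. ELA was the lowest array for all 3, and AZA was within 1.36 of ES. The membrane protein Ifitm3 (2.32) and the ubiquitin-like Isg15 (1.17) were higher. The signal carriers Stat2 (0.75) and Irf9 (0.39) were not called, Rsad2 was at -0.27, and the RNA sensor Ifih1 had 7.85 in ELA and 6.52 with AZA, too low to be tested.

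Genes of the low-oxygen response and of glycolysis were higher in 12 of 32 (37.5%, background 14.3%) and lower in 0. Car9, a carbonic anhydrase and a sensitive target of HIF, had levels of 7.16 (ES), 6.96 (ELA), 10.80 (AZA) and 7.15 (CHQ), a difference of 3.84. Ndrg1 had 11.13, 10.93, 13.90 and 14.95, and Vegfa, the vascular growth factor, had 8.53, 9.40, 12.27 and 11.76, with differences of 2.88 and 1.92. Car9 was high on the AZA array alone, whereas the others were high on both treated arrays. The 12 enzymes of the glycolytic chain on the list were not called, and by their brightest probes ran from -0.60 (Pfkl) to 0.99 (Hk2), with Gapdh at 0.11 and Aldoa at 0.64. Other probes went past the fold for Tpi1 (-1.11), Ldha (-1.90), Hk1 (2.20) and Gpi1 (1.01, against 0.93 at its brightest probe).

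Sterol synthesis genes, the targets of SREBP2, were lower in 18 of 24 (75%, background 11.4%) and higher in 0, with a median of -1.31 (-0.45 for CHQ minus ELA). Lss, lanosterol synthase, had levels of 11.93 (ES), 12.71 (ELA), 10.04 (AZA) and 11.57 (CHQ), a difference of -2.67. Insig1, which retains the SREBP complex in the endoplasmic reticulum, had 9.77, 10.50, 8.71 and 9.67, a difference of -1.79. AZA was the lowest array for both.

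Replication-dependent histones, whose messages end in a stem-loop, were lower in 15 of 25 (60%, background 11.4%) and higher in 2 (8%, under the background of 14.3%), with a median of -1.41 (-1.94 for CHQ minus ELA). The linker histone H1f4 had levels of 14.17 (ES), 15.26 (ELA), 12.30 (AZA) and 12.35 (CHQ), a difference of -2.96. H4c3 differed by -2.75 and H2bc18 by -2.57, while H2ac18 (1.76) and H2bc4 (1.06, and 0.87 under E1A scaling) were higher. Both treated arrays were low for H1f4. The copies are close in sequence, and single members are uncertain. Contractile genes of smooth muscle, many of them targets of serum response factor, were lower in 8 of 18 (44.4%, background 11.4%) and higher in 0, with a median of -0.81. Myl9, a regulatory myosin light chain, had 15.06, 14.72, 10.61 and 7.79, a difference of -4.11. Smooth muscle actin Acta2 had 12.37, 10.83, 6.97 and 6.88, a difference of -3.86, and Srf itself differed by -1.48. Of 36 genes of cadherins and epithelial junctions 10 were lower (27.8%, background 11.4%) and 3 higher (8.33%, background 14.3%). The tight junction claudin Cldn7 (-2.24), the gap junction protein Gja1 (-1.83) and the keratin Krt8 (-1.80 and -3) were lower with Cdh2, and Cdh1, the E-cadherin of the epiblast, had 14.30, 14.98, 14.21 and 14.54 and was not called.

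Detoxification and efflux genes were higher in 11 of 25 (44%, background 14.3%) and lower in 2 (8%, under the background of 11.4%). Abcb1b, a multidrug efflux pump, had levels of 11.82 (ES), 8.79 (ELA), 13.62 (AZA) and 14.77 (CHQ), a difference of 4.83, and its paralogue Abcb1a differed by 3.65. The glutathione transferase Gsta3 had 9.78, 7.66, 11.84 and 10.35, with differences of 4.18 and 3.68. ELA was the lowest array for these genes. Nqo1 was higher by 2.20, while the glutathione-synthesis subunit Gclm (-1.24) and Mgst1 (-2.48) were lower. Of the other annexins, Anxa2 (2.71) and Anxa1 (1.82) were higher, Anxa3 was lower (-1.37), and the rest were not called. The basement membrane and integrin list had 10 higher of 24 (41.7%, background 14.3%) and 3 lower (12.5%, near the background of 11.4%), with a median of 0.37 that became -0.06 under spike-in scaling. Nid1, a basement membrane linker, had 11.58, 9.67, 13.41 and 12.46, a difference of 3.74, and the integrin chain Itga3 was lower (-1.01, and -0.99 when quantiles were taken over ELA and AZA alone).

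Markers of cell types that such cultures could hold were set beside these groups. Of the melanocyte genes, besides Mlana, the factor Mitf was higher at both probes (3.63 and 2.79) with levels of 10.40 (ES), 8.47 (ELA), 12.11 (AZA) and 10.31 (CHQ), and Pmel had 11.99, 10.04, 11.63 and 10.18, a difference of 1.59. The pigment enzyme Tyr had 7.52, 7.53, 7.28 and 7.43, and Sox10 had 8.09, 8.08, 8.25 and 7.68. Tyrp1 had 6.17 and 6.13 on the untreated arrays, not well above background, 6.64 with AZA and 8.43 with CHQ. Dct, a pigment enzyme as well, was not well above background on any array. The pigment enzymes thus lay near the floor on the AZA and ELA arrays, while 3 of 5 tested members were higher (60%, background 14.3%). For the lists that follow, 14.3% of all tested genes were higher and 11.4% lower, and the lists are small. Primitive endoderm gave 4 higher and 2 lower of 13, with Hnf4a at least 16.9-fold higher and Dab2 lower (-1.47), while Gata4 differed by 0.24. Trophoblast gave 5 higher and 3 lower of 14, with Ascl2 (2.64) and Tfap2c (2.11) higher and Krt8 and Krt18 lower. Mesendoderm gave 2 higher and 1 lower of 7, and fibroblast 3 higher and 2 lower of 7. The part of such cells in the results above was not tested.

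Other lists of chromatin and signalling were read against the 14.3% of all tested genes called higher and the 11.4% called lower. Of 18 genes of histone H3 lysine 9 methylation and heterochromatin 0 were higher and 2 lower, the methyltransferase Suv39h1 (-1.78) and Cbx5, which encodes HP1 alpha (-1.13 and -0.56 at its probes), while Trim28, the scaffold of repeat silencing, differed by -0.28. Of 26 Polycomb genes 4 were higher and 1 lower, with Phf19 at 2.19, Eed at 1.23 and Cbx2 at -1.88, and the methyltransferase Ezh2 at -0.30. Among the genes of FGF and ERK feedback 2 of 19 were higher and 4 lower, with the receptor Fgfr1 at -1.32 and the feedback phosphatase Dusp6 at -0.22. Axin2, a direct target of Wnt signalling, differed by 0.38, and 1 of 12 Wnt targets was higher and 0 lower. The remaining lists held 3 higher and 3 lower of 13 for BMP and Id, and 2 and 2 of 10 for general pluripotency. They held 3 and 2 of 22 for ATF4 and the unfolded protein response, and 1 and 1 of 17 for metal handling. Of the Hox genes 2 of 4 tested were higher and 0 lower. The rest of the 34 on the array had a mean level under 7.5. The Hox genes called, Hoxc6 and Hoxc4, had 6.16 (not well above background) and 6.86 in ELA and 9.08 and 8.56 with AZA. They reached the mean of 7.5 only through the AZA array, so their count is no result about the list.

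Housekeeping groups held few calls under quantile normalisation, though their level depends on the scaling. None of 52 tested cytosolic ribosomal protein genes was called, and their differences ran from -0.47 (Rps3) to 0.43 (Rps18). Of 42 genes of oxidative phosphorylation 0 were called higher and 1 lower. None of 11 reference transcripts was called, with Actb at -0.15, Gapdh at 0.11 and Tbp at -0.29. The metallothioneins Mt1 (0.39) and Mt2 (0.38) were level, although the zinc transporter Slc39a8 was lower by 4.32 on the log2 scale, with 10.36 (ES), 11.54 (ELA), 7.23 (AZA) and 7.75 (CHQ). Most of the ribosomal and respiratory genes are bright, and calls were rarest at such levels. The median of the ribosomal list was -0.10, and it became -0.89 when the arrays were set level at the 75th percentile and -1.04 when E1A spike-ins set them level. In the same order it went from -0.09 to -0.46 and -0.59 for oxidative phosphorylation, and from -0.10 to -0.43 and -0.67 for the reference transcripts.

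**Figure D5:**
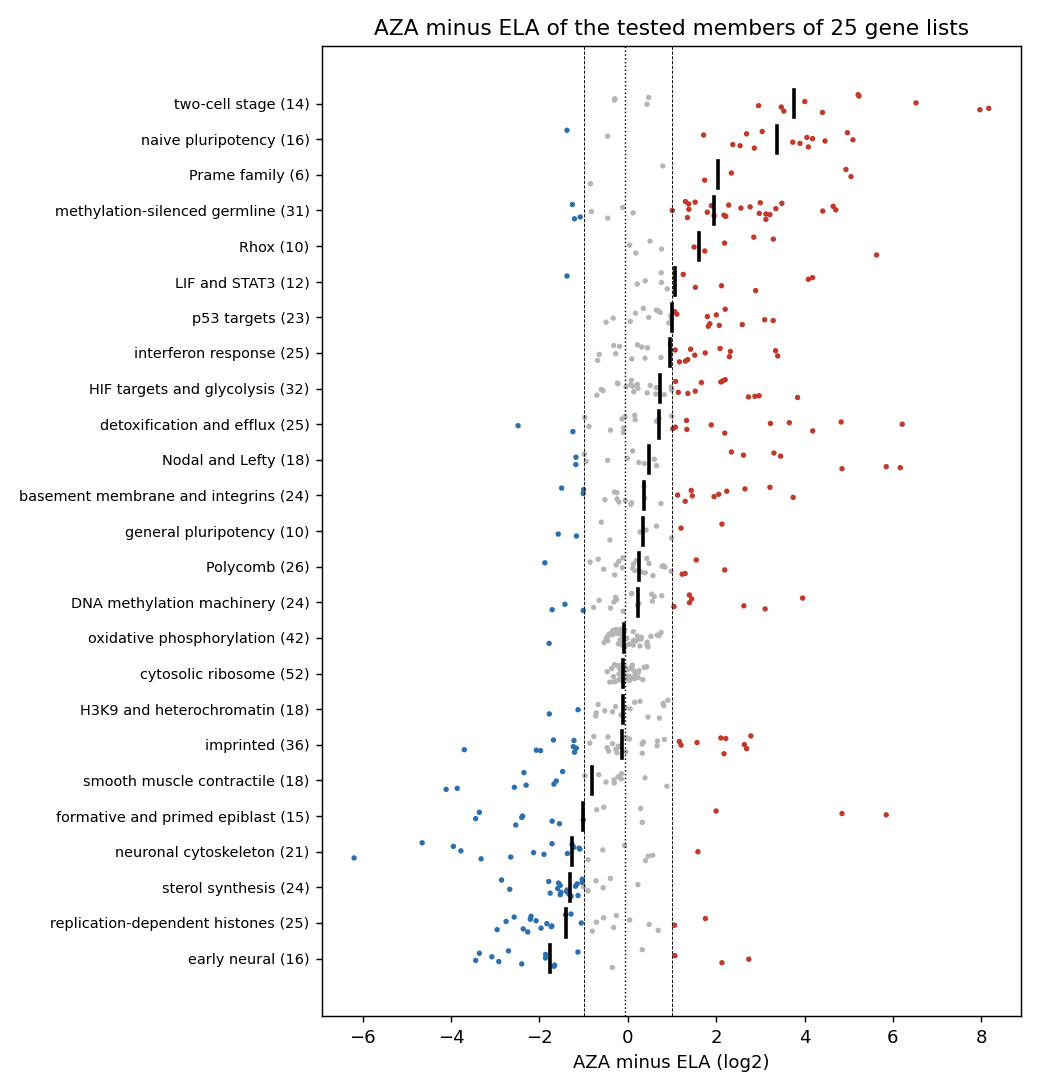
AZA minus ELA (log2, x axis) of the tested members of 25 gene lists, 1 point per gene, red where called higher, blue where lower and grey where neither, with the list's median as a black bar, the median of all tested genes (-0.07) dotted and 1 and -1 dashed; the number of tested members is in brackets. The medians run from 3.77 for the 2-cell list to -1.77 for the early neural list, and the cytosolic ribosome lies within -0.47 to 0.43.

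CHQ is the array that shares the AZA slide, and most genes called against ELA did not differ from it by the fold. Of the 2731 genes called higher 557 were also at least 1 above CHQ and 151 at least 1 below it. Of the 2175 called lower 318 were also at least 1 below CHQ and 32 at least 1 above it. Both contrasts use the same AZA array, so genes called higher against ELA lean upward against CHQ too, and those called lower lean downward. No share over all tested genes stands beside these counts, and they do not measure change particular to AZA. By the rule of the largest AZA minus CHQ difference among genes called in the same direction against ELA, Pramel14, Tcl1, Car9, Mfap4 and Fabp3 were higher. Fabp3, a fatty acid carrier, had levels of 15.20 (ES), 14.36 (ELA), 16.57 (AZA) and 13.22 (CHQ), and Mfap4 had 10.10, 11.43, 12.58 and 9.01, with its difference from ELA at 0.96 under E1A scaling. The genes lower against both were Cdh2, Trio, Insm1, Grip1 and Fmn2. Trio, a guanine exchange factor of axon growth, had 11.10, 13.18, 10.73 and 14.13. Insm1, a zinc finger factor of neuroendocrine progenitors, had 10.38, 11.52, 8 and 11.18, and Grip1, a synaptic scaffold, had 9.73, 10.36, 8.07 and 11.11. For Insm1, Grip1 and Cdh2 the AZA array was the lowest of the 4 by more than 1. Fmn2 had 9.24, 9.42, 8.29 and 11.37, and its AZA minus ELA difference of -1.13 was -0.27 at a second probe. A slide effect shared by both arrays of the second slide does not enter AZA minus CHQ, but that contrast sets one treatment against another and holds 1 array on each side.

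Calls were spread over the genome. On the autosomes the share of tested genes called higher ran from 12.2% on chromosome 6 to 16.4% on chromosome 7, and the share called lower from 7.91% on chromosome 11 to 17.0% on chromosome 18. The X chromosome had 118 higher and 120 lower of 770 tested genes (15.3% and 15.6%). Chromosome Y had 3 higher and 1 lower of 10 tested genes, and on its unplaced contigs 9 of 14 were higher and 0 lower, against the 14.3% and 11.4% of all tested genes.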

How the data were processed

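Total RNA of 4 groups (ES, ELA, AZA and CHQ), each a pool of 3 experiments on 1 array, was labelled with Cy3 and hybridised to single-colour Agilent arrays with 60-nucleotide probes. Per the file headers, the authors read the scans with Agilent Feature Extraction 10.7.3.1 (the submitters' processing notes name 9.1, and limma). The deposited scanner files give the mean spot intensity and local background intensity, not normalised between arrays, and the deposited value table holds their log2 values after background correction and quantile normalisation in limma. On each array that table correlated at 0.991 to 0.992 with the values computed here.

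The scanner files were processed anew in R 4.3.3 (limma 3.58.1). The mean intensity was corrected with normexp on the local background (offset 50), the 4 arrays were quantile-normalised together, control and outlier spots were left out (559 probes had no usable spot on some array), and repeated spots were averaged in log2. Of 55681 probes, 26576 (47.7%) were named by accession through RefSeq (GRCm38.p6, names only), while the rest are named as in the array's design. Probe coordinates are those of the files (mm9). Each gene was represented by its brightest probe by the mean of all 4 arrays. The thresholds of 1 (log2) and 7.5 (mean level) follow the study's methods. Their p-value threshold needs replicates. Precision is limited by having so few arrays. Bounds set the brighter array's value against the lowest signal among well-above-background probes of the dimmer one, or against the dim probe itself if brighter.

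The genes named are the 10 largest rises and 10 largest falls with an ordinary symbol, both arrays above background and at least 2 probes all past the fold, Mlana, Anxa8, Lefty1 and Stmn4, up to 5 largest bounds per direction with at least 2 probes above background on the brighter array alone, the study's markers and the DNA methyltransferases, the 4 largest called members of each gene list with up to 2 against its majority, and the 5 genes per direction called against ELA that differ most from CHQ. Others are named as list members or where the text says so, and a few genes of the rule are not reported here. The comparison and the 42 gene lists were chosen with earlier results of these data known. The procedure was tested on simulated data. The 9 alternatives tried changed the scaling, the background correction, the filters or the probe per gene.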

Additional observations from a re-analysis of the deposited data

How the results depend on the processing

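No paired analysis was possible because each group has 1 array, and for the same reason no replicate could be left out and no slide block could be fitted. The number of genes called higher (2731) ran from 2087 to 3430 over the 9 alternatives. The number called lower (2175) ran from 2113 to 2687 except under E1A spike-in scaling (8 probes), which gave 3667 genes lower by the brightest probe and 460 lower at every probe, in place of 250. That scaling moved the median of all tested genes from -0.07 to -0.38, and 36.3% of its calls were higher, against 55.7%. Scaling to the 75th percentile also turned the balance, with 2357 higher and 2483 lower (48.7% higher). No called named gene changed direction, while the medians of 11 of the 42 lists changed sign in some alternative. Of 192 named genes, 15 fell under the fold in some alternative, among them Dnmt3a (-0.98 at the 75th percentile), Nanog (0.66 for the median over probes) and Fmn2 (-0.15 at the 75th percentile). The medians of the general pluripotency list (0.34), the Polycomb list (0.25) and the mesendoderm list (0.20) became -0.08, -0.02 and -0.22 under E1A scaling. The cause was not tested. The median of the 2-cell list (3.77) ran from 0.47, with both arrays above background, to 5.81 with the authors' values, and that of the cytosolic ribosome (-0.10) fell to -1.04 under E1A scaling. In simulated data 37 of 49 falls of 3 log2 units and 39 of 50 falls of 1.5 were recovered, against 50 of 50 rises at each size. A part of the signal over background in this was not tested.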
